A study of Bos taurus with 20 samples.

Results

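Transient dips were genes whose mRNA level in bovine satellite cells was at least 2-fold lower after 24 h in low serum than before, and at least 2-fold higher at 96 h than at 24 h. Levels were read counts relative to library size, as CPM, scaled between libraries by the trimmed mean of M-values (TMM), which sets the scale by the bulk of the genes. Members were chosen by the mean CPM of the 4 libraries at 0 h, 24 h and 96 h, with 0.1 CPM added to each mean. This rule took 36 of the 14636 genes kept by a filter on low counts, 0.246% of them. The table listed 27607 genes, of which 6761 had no count in any library and 6210 had counts but did not pass the filter. The rule used the levels at 0 h, 24 h and 96 h, so the sizes of the fall and of the return in these libraries are a description and carry no test.

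The cells were satellite cells of the Belgian Blue breed, labelled as muscle progenitor cells. They grew on collagen in medium with 20% fetal bovine serum, were switched to 2% serum to differentiate, and were sampled just before the switch (0 h) and every 24 h up to 96 h. Each time point had 4 libraries of polyA RNA, replicates A to D, which the design text calls biological replicates. The labels put replicates A and B of every time point in batch 1, and C and D in batch 2. No label says whether the replicates came from separate animals or from separate cultures of the same cells, so the p-values measure the spread between these samples. No culture was kept in 20% serum for the later times, so low serum and time in culture cannot be told apart. Totals ranged from 21100797 to 41998509 counts per library.

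Satellite cells are the stem cells of skeletal muscle and lie between a muscle fibre and its basal lamina. Once activated they divide as myoblasts, and when serum is withdrawn myoblasts leave the cell cycle, switch on muscle genes and fuse into myotubes. Whether the cultures at 24 h were at the passage from dividing to differentiating cells was not tested. RNA from a whole culture reports an average, in which fewer cells that make a transcript and less transcript per cell cannot be told apart.

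The count table gives each gene only as an Ensembl cattle identifier, and 0 of these occurred in the RefSeq gene table at hand. No symbol, function, position or sequence is therefore given for any member, and the labelled cell type was not checked against markers. The members are described by their levels and time courses, and 4 of them are named by identifier. These are the deepest dips among members that averaged 1 CPM or more over all libraries, 2 among the members higher at 96 h than at 0 h and 2 among those lower. Depth here means the smaller of the fall and the return on the log2 scale.

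Folds and percentages of the 0 h level are given on the scale of the rule, mean CPM plus 0.1, unless stated otherwise; this scale understates changes of genes at low levels. On it the members were a median of 2.54-fold lower at 24 h than at 0 h, with a range of 2.06- to 8.43-fold. Their return from 24 h to 96 h had a median of 2.79-fold and a smallest value of 2.01-fold. With nothing added, the fall had a median of 2.97-fold (range 2.14- to 14.98-fold) and the return a median of 3.35-fold. On the scale of the rule the fall reached 4-fold in 7 members and the return in 11. In the plot of first-day change against later change, the members occupy a thinly filled corner. Of 719 genes whose mean fell at least 2-fold by 24 h, 36 (5.01%) met the return criterion and 683 did not.

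**Figure D1:**
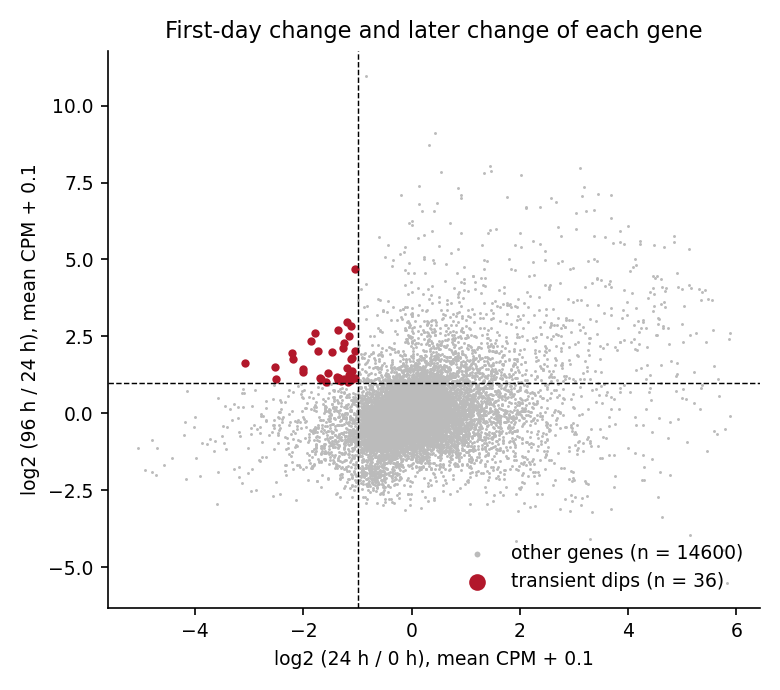
Each point is 1 of 14636 genes, with the log2 ratio of 24 h to 0 h on the horizontal axis and of 96 h to 24 h on the vertical axis, both from the mean CPM of 4 libraries plus 0.1. Dashed lines mark the 2-fold limits of the rule, and the 36 transient dips in red lie in the upper left corner.

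Members and other genes met at the limits of the rule. The 3 members closest to a limit fell 2.06-, 2.98- and 2.27-fold and returned 4.05-, 2.01- and 2.01-fold. The 3 genes just outside fell 1.99-, 1.99- and 1.99-fold and returned 2.05-, 12.9- and 3.26-fold. There were 9 members with a depth between 1 and 1.1 on the log2 scale and 21 genes with a depth between 0.9 and 1. The group thus has no gap at its edge.

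Members were expressed at lower levels than most genes. Their mean over the 20 libraries ranged from 0.193 to 367 CPM with a median of 2.67 CPM, against a median of 19.7 CPM for all kept genes. A mean under 1 CPM was found for 13 members (36.1%) and for 12.1% of all kept genes. The median level of the members went from 2.83 CPM (0 h) to 1.07 CPM (24 h), 1.78 CPM (48 h), 2.39 CPM (72 h) and 4.08 CPM (96 h), while that of all kept genes lay between 18.0 and 18.7 CPM at each time. The filter bears on this, since 7 members would not have passed it on the libraries of 24, 48 and 72 h and entered through their levels at 0 h or 96 h. A gene that passes in this way has to differ between times.

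The counts behind the low point differed widely between members. Summed over the 4 libraries at 24 h, they ran from 1 to 19808 with a median of 132.5. Fewer than 20 counts were behind the 24 h mean of 10 members, and 51 or fewer behind that of each member under 1 CPM. In some members the 0.1 CPM added to each mean was larger than the 24 h mean itself and weighs heavily on the ratio. Examples are a member with 6 counts at 24 h (0.0483 CPM) and a member with 10 counts (0.0810 CPM). For 2 members there were 3 counts or fewer at 24 h, and the added 0.1 CPM then sets the size of the ratio. One of them had 1 count at 24 h, 17 at 0 h and 257 at 96 h. Its level at 0 h was 15.02 times that at 24 h, with a 95% counting interval of 2.35 to 628, and its level at 96 h was 320 times that at 24 h, with an interval of 56.9 to 12688. The other had 2 counts at 24 h, 27 at 0 h and 63 at 96 h, with ratios of 11.9 (2.997 to 104) and 39.2 (10.4 to 331). These intervals are exact conditional binomial ones and cover counting error only.

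The 11 members above 10 CPM were free of this limit, with 690 to 19808 counts each at 24 h. Their means ran from 18.4 to 912 CPM at 0 h, from 5.63 to 160 CPM at 24 h and from 19.5 to 362 CPM at 96 h. They fell 2.14- to 5.74-fold and returned 2.17- to 7.12-fold. In each of the 11, every library at 24 h lay below every library at 0 h and at 96 h. The rule chose on the means of these times, so this separation is a description.

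Over all members, the libraries at 24 h lay entirely below those at 0 h and 96 h for 33 of 36, where 6.69% of all kept genes showed such a gap. The rule chose on these same means, so nothing is read from that count. The other 3 members had means under 1 CPM.

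Together the members held 0.184 ± 0.0182% of all counts before the switch and 0.0469 ± 0.00233% a day later (SD, n = 4 each). Their share then rose to 0.0680 ± 0.00384% (48 h), 0.0959 ± 0.00614% (72 h) and 0.114 ± 0.00764% (96 h). These are shares of raw counts without TMM scaling, unlike the CPM values. The mean TMM factors were 1.13 at 0 h, 1.19 at 24 h and 0.854 at 96 h. The raw shares therefore show a smaller recovery by 96 h than the TMM scale would. The most abundant member alone accounted for 0.103% of counts at 0 h, so these shares describe a few abundant genes. That member had 1068.5, 1027, 773 and 781 CPM at 0 h in replicates A to D and 162, 170, 135 and 174 CPM at 24 h. Its later levels were 127 to 173 CPM at 48 h, 230 to 285 CPM at 72 h and 283 to 379 CPM at 96 h. It was thus still low at 48 h and regained only part of its starting level.

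At 96 h the members had come back to widely different levels. Relative to 0 h their levels at 96 h had a median of 101%, from 37.2% to 1237%, or from 36.9% to 2158% with nothing added. The highest value belongs to the member with 1 count at 24 h. As many members were higher at 96 h than at 0 h (18) as were lower (18). The end level was within 1.5-fold of the start for 21 members and within 2-fold for 27, at least 2-fold higher for 6 and at least 2-fold lower for 3. All 4 libraries at 96 h lay above all 4 at 0 h for 12 members and below them for 5, and the libraries of both times overlapped for 19. Over all kept genes, 36.8% lay above and 36.3% below without overlap.

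The time of the return varied. By 48 h the mean was at least 2-fold above 24 h for 16 members. In 3 of these it was below that level again at 72 h. A further 6 first reached that level at 72 h, and 14 did so only at 96 h, where the rule required it. The first 16 had median levels of 41.7%, 94.9%, 130% and 141% of 0 h at the 4 later times, and 12 of them ended above their start. The 6 members of the second set had medians of 42.5%, 66.7%, 108% and 120% at these times. The 14 late members stayed at 36.1%, 38.1% and 47.8% through 24, 48 and 72 h and reached 77.6% at 96 h, and 3 of them ended above their start. A higher mean at 96 h than at 72 h is built into this last set.

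**Figure D2:**
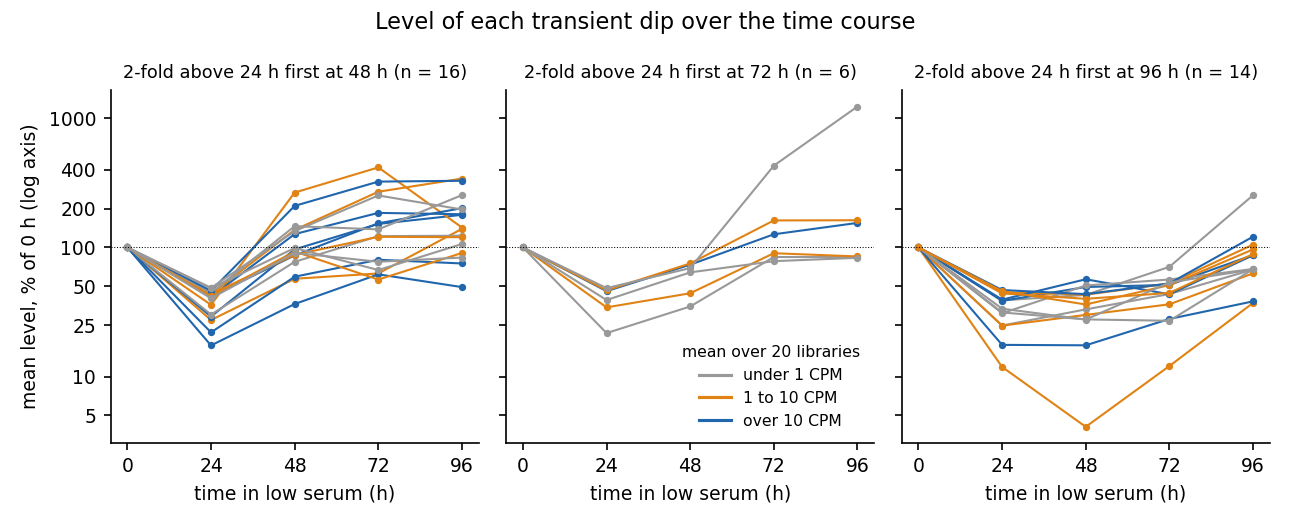
Lines show the mean level of each of the 36 members as a percentage of its 0 h mean, both plus 0.1 CPM (log axis), against hours in low serum, in panels by the first time at which the mean was at least 2-fold above 24 h (16, 6 and 14 members). Colours give the mean level over the 20 libraries; levels in the first panel are up by 48 h (median 94.9% of 0 h), while those in the last stay low through 72 h (median 47.8%).

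The description as a dip at 24 h does not hold for every member. The mean was lowest at 24 h in 28 members, while 7 had their lowest mean at 48 h and 1 at 72 h. At 48 h the mean was above that at 24 h for 28 members and below it for 8. All 4 libraries at 48 h lay above all 4 at 24 h for 21 members, below them for 1, and overlapped them for 14. Over all kept genes, 28% lay above and 27.4% below without overlap, and the members had been chosen for low levels at 24 h. The highest mean was at 0 h for 18 members, at 96 h for 14 and at 72 h for 4.

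Among the 4 named genes, ENSBTAG00000013108 was the most abundant. It had 221, 233, 173 and 181 CPM in replicates A to D at 0 h and 57.8, 57.6, 62.9 and 57.3 CPM at 24 h. It then stood at 200.2, 199, 209 and 173 CPM at 48 h, 314, 270.0, 327 and 319 CPM at 72 h, and 392, 343, 380.2 and 332 CPM at 96 h. The 24 h libraries lay far below those of every other time, the 48 h libraries overlapped those of 0 h, and those of 72 h and 96 h exceeded it. The means were 202 ± 29.6 CPM at 0 h, 58.9 ± 2.68 CPM a day later and 362 ± 28.9 CPM at the end (SD, n = 4 each), a fall of 3.43-fold and a return of 6.14-fold. The limits of the rule did not use the means of 48 h and 72 h. Between these times the gene rose by 0.66 on the log2 scale with a standard error of 0.09 (edgeR quasi-likelihood test with Benjamini-Hochberg adjustment, adjusted p = 3.53e-06).

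ENSBTAG00000019782 had 16.5, 30.1, 29.2 and 28.2 CPM at 0 h in replicates A to D and 3.82, 5.74, 7.34 and 5.64 CPM at 24 h. Later it had 15.7, 12.8, 16.1 and 16.9 CPM at 48 h, 19.4, 17.1, 24.5 and 22.5 CPM at 72 h, and 18.8, 15.6, 17.5 and 26.2 CPM at 96 h. Replicate A was low at 0 h, so the libraries of 0 h and 96 h overlapped, and most of the return was present by 48 h. The mean fell 4.55-fold and returned 3.42-fold. The change from 48 h to 72 h was 0.43 on the log2 scale (standard error 0.16, edgeR adjusted p = 0.0415). That call was lost with the replicate letter as a block (edgeR adjusted p = 0.0547), in batch 1 alone (edgeR adjusted p = 0.424), without the batch term, with library sizes alone, and without replicates B, C or D at 48 h or replicates A, C or D at 72 h, each left out singly (edgeR adjusted p = 0.0643 to 0.102).

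ENSBTAG00000015214 had the largest first-day fall on the scale of the rule and was lower still at 48 h. It had 18.7, 21.3, 22.6 and 25.8 CPM at 0 h in replicates A to D, 3.03, 2.54, 2.28 and 2.30 CPM at 24 h, and 0.801, 0.825, 0.692 and 0.906 CPM at 48 h. It then had 2.04, 2.05, 3.58 and 2.65 CPM at 72 h and 5.69, 6.29, 14.5 and 6.15 CPM at 96 h. All libraries at 48 h were below all at 24 h, and all libraries at 96 h were below all at 0 h. The fall was 8.43-fold and the return 3.13-fold on the means, or 1.65 on the log2 scale, which went to 1.22 without replicate C of 96 h. Its rise from 48 h to 72 h was 1.61 on the log2 scale (standard error 0.31, edgeR adjusted p = 0.00039).

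ENSBTAG00000003440 was expressed near 1 CPM. It had 50, 81, 44 and 35 counts at 0 h in replicates A to D, and 8, 8, 9 and 16 counts at 24 h. The corresponding levels were 1.41, 1.73, 1.47 and 1.28 CPM at 0 h and 0.252, 0.264, 0.306 and 0.504 CPM at 24 h. The levels were 0.702 to 0.939 CPM at 48 h, 0.735 to 1.24 CPM at 72 h, and 2.61, 1.96, 2.32 and 1.49 CPM at 96 h. The mean went from 1.47 CPM at the start through 0.801 CPM at 48 h and 0.891 CPM at 72 h to 2.09 CPM at the end. The libraries of 0 h and 96 h overlapped. Its change from 48 h to 72 h, 0.14 on the log2 scale with a standard error of 0.25, missed the threshold (edgeR adjusted p = 0.685).

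**Figure D3:**
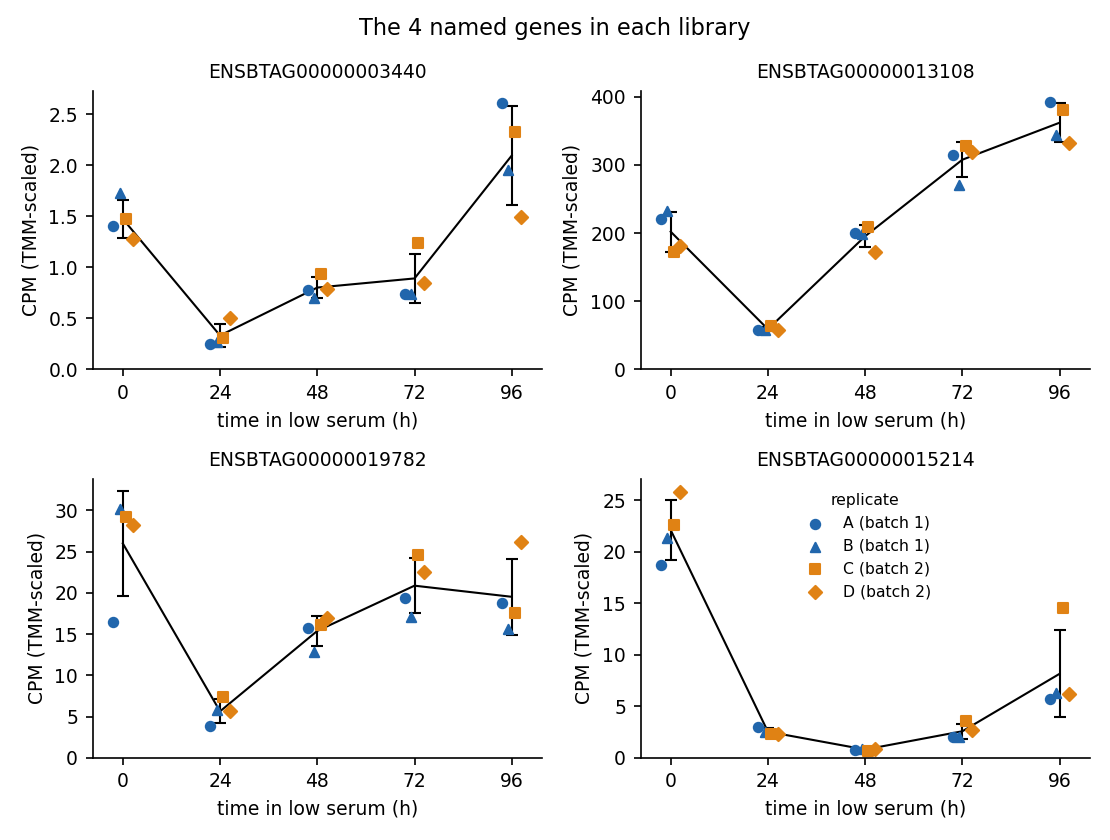
CPM in each of the 20 libraries for the 4 named genes against hours in low serum, with symbols for replicates, blue for batch 1 and orange for batch 2, and black lines and bars for the mean ± SD of 4 libraries. ENSBTAG00000013108, ENSBTAG00000019782 and ENSBTAG00000003440 were lowest at 24 h, and ENSBTAG00000015214 was lowest at 48 h.

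The step from 48 h to 72 h was tested in all members, since the means of these times did not enter the limits of the rule. The filter and the scaling did use their libraries. In 1 fit over the 20 libraries with terms for time and batch, 19 members rose and 2 fell (edgeR, adjusted p under 0.05 over all 14636 genes), and 15 did not pass the test. Rising members were 52.8% of the group, where 20.7% of all genes rose. Falling members were 5.56%, where 20.8% of all genes fell, and in either direction 58.3% of members and 41.4% of all genes passed. With library sizes alone, 18 members rose and 2 fell, while over all genes 1878 rose and 4433 fell, against 3028 and 3037 with TMM. The median change was 0.59 on the log2 scale over the members and -0.01 over all genes. The step lies inside the interval over which the rule required a rise, so a surplus of rises is not independent of how the members were chosen.

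Among the 29 members that reached the level of the filter in at least 4 of the 8 libraries of 48 h and 72 h, 17 rose, 2 fell and the median change was 0.55 on the log2 scale. With 2 libraries per time, batch 1 alone called 16 members, where it called 25.5% of all genes, and batch 2 alone 19, where it called 25.6%. By level, 8 members above 10 CPM rose and 1 fell, 6 between 1 and 10 CPM rose and 1 fell, and 5 under 1 CPM rose. No share over all genes of the same level or filter status is given here. The counts by level and for the 29 members are therefore a description. Whether these levels differ was not tested.

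The step was also measured in the 683 genes whose mean fell at least 2-fold by 24 h without the return. Of these, 36 (5.27%) rose from 48 h to 72 h and 223 (32.7%) fell, with a median change of -0.25 on the log2 scale. Both sets were separated by their level at 96 h, which follows this step, so their difference is not independent of that choice.

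**Figure D4:**
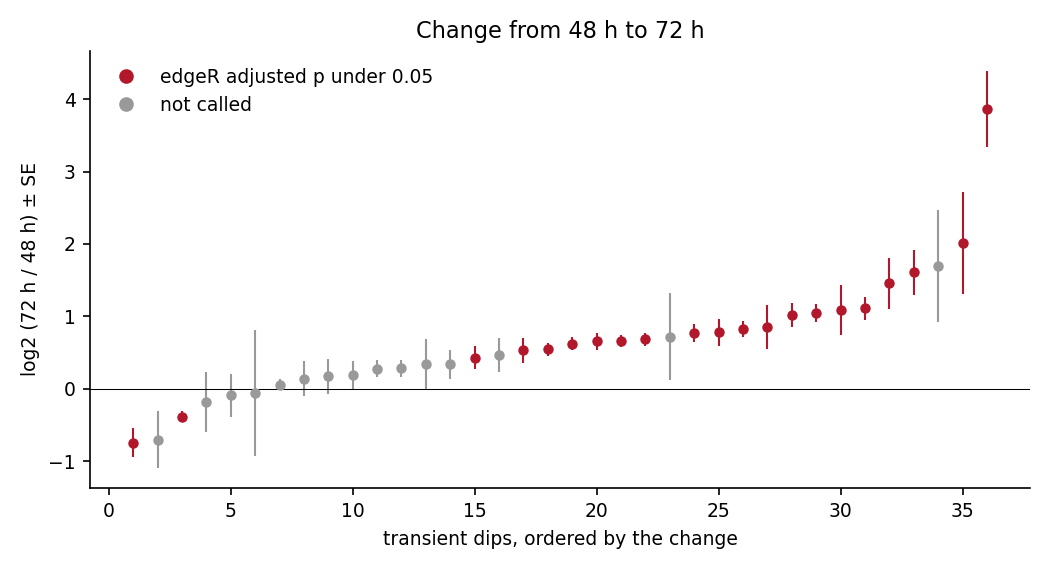
Log2 change from 48 h to 72 h (points) with its standard error (bars) for the 36 members in order of the change, from the edgeR fit over 20 libraries. The standard error is the size of the change divided by the square root of its F statistic. Red marks the 21 members that passed the test, 19 above 0 and 2 below.

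To test the fall and the return in libraries that had not been used to choose the genes, the rule was applied to batch 1 alone and the chosen genes were tested in batch 2, and the reverse. Each batch had 2 libraries per time. Batch 1 gave 67 genes, of which 28 were among the 36 members. In batch 2, 62 of the 67 had both changes in the chosen direction, 26 met the 2-fold rule again, and 39 (58.2%) both fell by 24 h and rose from 24 h to 96 h (edgeR, both steps at an adjusted p under 0.05). Of all 14950 genes tested there, 4.55% passed both steps and 0.334% met the rule.

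Batch 2 gave 47 genes, of which 31 were among the members. In batch 1, 45 of the 47 had both changes in the chosen direction, 25 met the rule again, and 31 (65.96%) passed both steps, against 7.84% and 0.437% of 14637 genes for both steps and for the rule. The sizes shrank in the libraries not used for the choice. For genes chosen in batch 1, the median fall was -1.43 on the log2 scale in batch 1 and -1.19 in batch 2, and the median return was 1.48 and 1.38. For genes chosen in batch 2, the fall was -1.35 there and -1.12 in batch 1, and the return was 1.67 and 1.46.

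Low levels were common among the genes that did not pass both steps. Means under 1 CPM were found for 15 of the 28 genes chosen in batch 1 that did not pass both steps in batch 2, and for 6 of the 39 that did. In the other direction these were 11 of 16 and 6 of 31. The members themselves were chosen on the means of both batches, so their values within each batch are a description and no check. The rule was met in each batch separately by 24 of the 36 members, in 1 batch only by 11 and in neither by 1. Of the 12 members between 1 and 10 CPM 10 met it in each batch, of the 11 above 10 CPM 9 did, and of the 13 under 1 CPM 5 did.

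**Figure D5:**
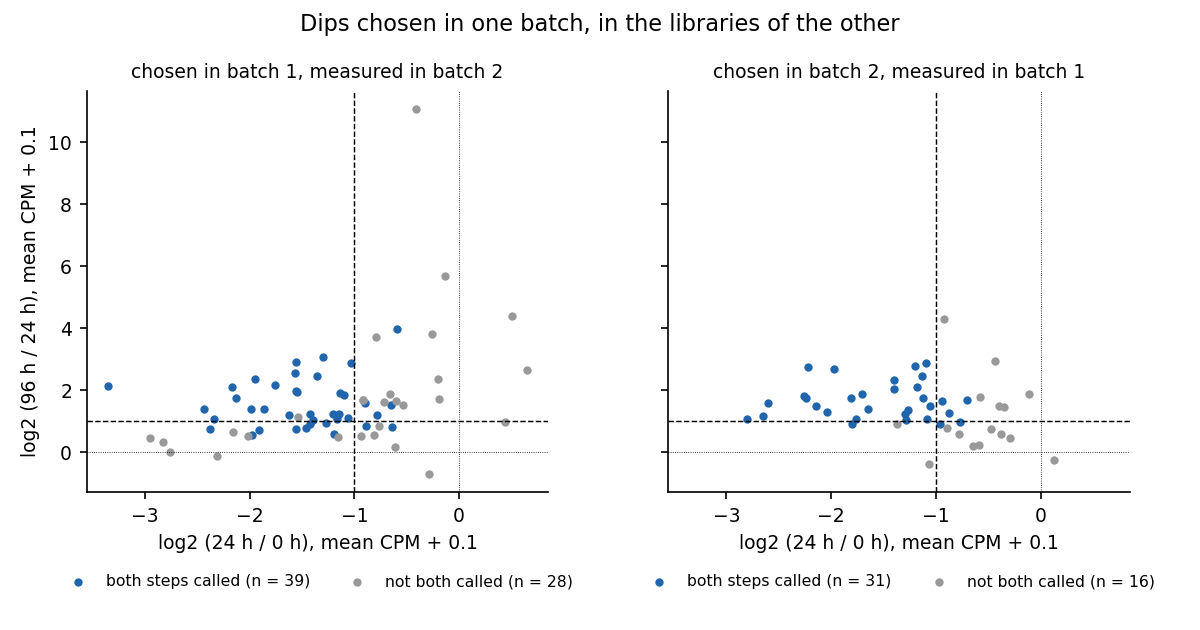
Genes that met the rule in one batch, plotted by their log2 changes in the libraries of the other batch, with 24 h against 0 h on the horizontal and 96 h against 24 h on the vertical axis (2 libraries per time). Dashed lines mark 2-fold; blue points passed both steps (39 of 67 and 31 of 47); grey points did not.

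The same held-out fits gave the later course. From 24 h to 48 h, 32 of the 67 genes chosen in batch 1 rose in batch 2 and 3 fell (edgeR), where 24.5% of all genes rose and 22.8% fell, with a median change of 0.78 on the log2 scale over the 67 and -0.03 over all genes. Of the 47 chosen in batch 2, 21 rose and 2 fell in batch 1, where 27.8% of all genes rose and 26.7% fell, with a median change of 0.84 against -0.02. Both sets were chosen for a low level at 24 h and a rise from it by 96 h. A surplus of rises in this step is therefore not independent of the choice, even in the other batch.

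For 96 h against 0 h, the genes chosen in batch 1 comprised 24 higher, 21 lower and 22 that did not pass the test in batch 2. Over all genes tested there, 36% were higher and 35% lower. Those chosen in batch 2 comprised 18 higher, 7 lower and 22 not called in batch 1, where 37.4% of all genes were higher and 37.4% lower. The shares of chosen genes called in either direction were thus near those of all genes for the first set. In the second set, 7 of 47 were lower, a smaller share than the 37.4% of all genes. The rule required a return by 96 h, so a shortage of genes lower at 96 h is not independent of the choice. A test that misses its threshold does not show that a gene came back to its starting level.

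Replicates of the members varied more than those of most genes. The biological coefficient of variation, the spread between replicates beyond counting error, had a median of 12.5% over the members (range 6.81 to 34.4%) and 8.08% over all kept genes. Among genes above 10 CPM the medians were 9.31% for the members and 6.92% for all genes, and under 1 CPM they were 17.9% and 14.8%. The level differed between batches for 6 members (16.7%), 3 higher and 3 lower in batch 2, where 19.2% of all genes differed (edgeR batch term). The median size of the batch difference was 0.19 on the log2 scale over the members and 0.10 over all genes, not matched for level. The largest among the members was 1.92, in a member averaging 0.738 CPM that was higher in batch 2. A time course that differed between batches was called for 0 members and for 0.00683% of all genes (edgeR batch by time test, lowest adjusted p among members 0.505). At an unadjusted p under 0.05, 5 members (13.9%) and 9.72% of all genes passed that test.

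With another scaling for composition, the relative log expression method, 37 genes met the rule, among them all 36 members. With library sizes alone, which moved the median log2 ratio of 96 h to 24 h over all genes from -0.02 to -0.48, 20 genes met the rule, all of them members. With 1 CPM in place of 0.1 CPM added to each mean, 14 genes met it, again all members.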

How the data were processed

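PolyA RNA was sequenced in 20 libraries, with a strand-specific mRNA kit and 75 bp reads per the labels' protocols. STAR 2.7, featureCounts and the build bosTau9 are named in the submitters' processing notes. The annotation, the parameters and the strand setting were not found in these sources, so overlapping genes and near-identical copies may share reads. The authors deposited raw counts of reads for each gene, and 0 columns were left unused.

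The analysis used edgeR 4.0.16 in R 4.3.3: filterByExpr by time point (minimum count 10, minimum total 15), TMM scaling, and a quasi-likelihood model with robust estimation, with Benjamini-Hochberg adjustment and a threshold of 0.05. One fit over all 20 libraries had terms for time point and batch. Standard errors were taken as the size of the log2 change divided by the square root of its F statistic. In the held-out tests, the filter and the rule used one batch alone and the fit, with a term for time point, used the other. The batch and batch by time tests were added after the data were examined. The procedure was run on simulated data with changes only in genes averaging over 1 CPM, the same spread for all genes and no batch difference. It was therefore not checked for changes in genes under 1 CPM. Alternatives were DESeq2 1.42.0, other scalings, no filter, other limits of the rule, single batches, a replicate block and the omission of each library.

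The members were chosen with earlier results of these data known, and so were the comparisons. Lists of genes by symbol and cell type markers had been set out but could not be applied, because 0 identifiers had a symbol. For the same reason the rule for named genes took, by depth and with a mean of at least 1 CPM, the first 2 members higher and the first 2 lower at 96 h than at 0 h.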

Additional observations from a re-analysis of the deposited data

Results flagged for a closer look

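For the named genes, 20 sets of 4 replicate values were checked with Dixon's test, and 3 sets had 1 library standing apart. About 1 set in 20 does so by chance. At 24 h, replicate C had 62.9 CPM of ENSBTAG00000013108, with the others between 57.3 and 57.8 CPM. At 0 h, replicate A had 16.5 CPM of ENSBTAG00000019782, with the others between 28.2 and 30.1 CPM; without it the fall by 24 h was -2.35 on the log2 scale in place of -2.19. At 96 h, replicate C had 14.5 CPM of ENSBTAG00000015214, with the others between 5.69 and 6.29 CPM.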

How the results depend on the processing

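Alternatives gave 135 recomputed counts, of which 127 differed from the main count by at most 1.5 times and 8 by more. Most of these left out a single library and shared all others with the main run, so closeness is partly built in. Leaving out a library of 48 h or 72 h can change which genes meet the rule only through the filter and the scaling. With library sizes alone, 20 genes met the rule, 15 chosen in batch 1 passed both steps in batch 2, and 16 did in the reverse. The rule was met by 14 genes with 1 CPM added, 217 at 1.5-fold and 6 at 3-fold. For 72 h against 48 h over all genes, 6065 were called, and 3734 in batch 1 alone and 3746 in batch 2 alone; the single batches have fewer libraries, and the cause was otherwise not tested. Without single libraries, 33 to 46 genes met the rule, 17 to 23 members were called for 72 h against 48 h, and the genes that passed both steps numbered 37 to 46 and 26 to 43; without replicate D of 24 h the rule took 46. With the replicate letter as a block, 20 members were called for 72 h against 48 h in place of 21, and the held-out counts were 39 and 31. Same-letter libraries had deviations from their time means with correlations of -0.35 to 0.53 (median 0.14, over 0.1 in 22 of 40 pairs). For 7 of 20 libraries the own letter correlated best. These values do not settle whether libraries of the same letter are paired, and the main fits assumed no pairing by letter.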
